A study of Drosophila melanogaster with 6 samples.

Results

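Aminoacyl tRNA synthetases were described in cells sorted from the wing imaginal disc, the larval epithelium of *Drosophila melanogaster* that forms the adult wing and dorsal thorax. The genes were taken by symbol from the platform annotation of the array, as all probe sets with 1 gene symbol made of amino acid codes followed by RS, with or without -m, or beginning with the older prefix Aats-. No symbol carried the older prefix, and 34 of the 14010 probe sets matched, which stand for 30 of the 10844 named genes. Of these, 19 probe sets for 16 genes are cytosolic enzymes and 15 probe sets for 14 genes carry the -m of mitochondrial enzymes. *AspRS*, *MetRS* and *AlaRS-m* were not analysed here, and neither were the sequences of the genes or probes.

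An aminoacyl tRNA synthetase joins an amino acid to the tRNAs that carry its anticodons, and so sets the meaning of the genetic code at translation. The enzymes fall into unrelated classes, I and II, which differ in the fold of the catalytic domain. In animals most amino acids have a nuclear gene for the cytosol and another for the mitochondrial matrix, while some genes, among them that for glycine in the fly, give enzymes for both places. Charging is a housekeeping step, and uncharged tRNA is the signal that activates the kinase Gcn2 when amino acids run short.

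Both groups of cells came from discs of late third-instar larvae carrying E(spl)m4-GFP, a fluorescent reporter under regulatory DNA of a gene of proneural clusters, the patches of cells from which sensory organ precursors arise. Cells brighter than discs of the *w1118* strain, which has no reporter, were the GFP-positive samples, and cells below that limit were the GFP-negative samples, with 3 arrays in each group. About 200 discs were dissociated with trypsin for a sample, so no value belongs to 1 animal, and the GFP-positive samples held all cells above the limit and the GFP-negative samples 100000 below it. Whether samples within a group were separate dissections is not stated, so the p-values rest on a spread that may be technical. Of 8 tested probe sets for proneural markers, the reporter gene among them, 6 passed as higher in GFP-positive cells and 0 as lower. *neur* and *sc* did not pass. Over all tested probe sets 1.25% passed as higher and 1.74% as lower. All but that of *neur* entered the test only through the GFP-positive arrays, and the cells were sorted on this reporter, so these counts do not test the sort. The other 5 probe sets of that list were Present on no array. Of the wing disc markers, *vg*, *ap* and *ci* were Present on all 6 arrays, *en* was lower in GFP-positive cells, and *nub*, *tsh* and *ptc* were Present on none. Some markers of other cells differed between the groups and others did not. Of 4 tested probe sets for adult muscle precursors 3 were lower in GFP-positive cells, where the 11 probe sets of that list summed to 1147 to 1242 units against 3334 to 6118, with *Him*, *htl* and *SPARC* Present on no GFP-positive array and *twi* and *zfh1* on none of the 6. The fourth tested one, for *sns*, did not pass, was Present on all 6 arrays and read 711.5 to 855.6 units in GFP-positive cells, most of that sum, against 398.1 to 623.7. Of 2 tested hemocyte probe sets 1 (*Col4a1*) was lower, and the 6 of that list summed to 305 to 400 against 996 to 1413 units. *Hml*, *Pxn*, *NimC1* and *vkg* were Present on no array, and *vkg* read 33.5 to 45.6 against 273.3 to 410.1 units. Of 3 tested glial probe sets 1 (*loco*) was higher (sums of 1603 to 2148 against 1091 to 1529 units), while *repo* and *Gli* did not pass. A second *loco* probe set, Present on no array, read 386.2 to 503.6 against 361.4 to 633.3 units. For the fat body 0 of 2 probe sets were tested (sums of 337 to 521 against 384 to 432). The 1 tested tracheal probe set, for *verm*, did not pass, at 4494 to 5516 against 2748 to 3852 units without overlap, the 4 tracheal probe sets summed to 4679 to 5965 against 3208 to 4062, and *btl* was Present on none. *Him*, *htl*, *SPARC* and *Col4a1* entered the test only through the GFP-negative arrays, and *loco* only through the GFP-positive arrays. Their counts are therefore no test of which cells each group held. The part of these other cells in the synthetase values was not tested.

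Signal is the brightness of a probe set in arbitrary units, scaled on each array to the same trimmed mean, and a call of Present, Marginal or Absent says whether the probe set stood above its mismatch controls. Because of that scaling, a change shared by all transcripts of a cell would not show, and fewer cells of a type cannot be told apart from less RNA per cell. A probe set entered the test if 2 or 3 arrays of either group called it Present. Differences are GFP-positive minus GFP-negative means of log2(signal + 16), with the standard error (SE), the 95% interval and the Benjamini-Hochberg adjusted p from limma over all 4943 tested probe sets. Intervals are for 1 probe set at a time, and like the p-values they ignore any pairing of same-numbered samples.

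The cytosolic synthetases were detected in both groups of cells, and none of their differences passed the test. Of their 19 probe sets, 16 were Present on all 6 arrays (84.2%, against 25.5% of all probe sets on the array), 1 on 5, 1 on 4 and 1 on none. The number Present per array was 18, 18 and 18 in GFP-negative replicates 1 to 3 and 18, 16 and 17 in GFP-positive replicates 1 to 3 (two-sided exact permutation p = 0.4, where 3 arrays against 3 cannot give less than 0.1). Of the 18 tested probe sets, which cover all 16 genes, 0 rose and 0 fell (limma, adjusted p under 0.05), where 1.25% of all tested probe sets were higher and 1.74% lower. Of the 18, 9 had a positive and 9 a negative difference, and the median was -0.01, the same as over all tested probe sets.

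**Figure D1:**
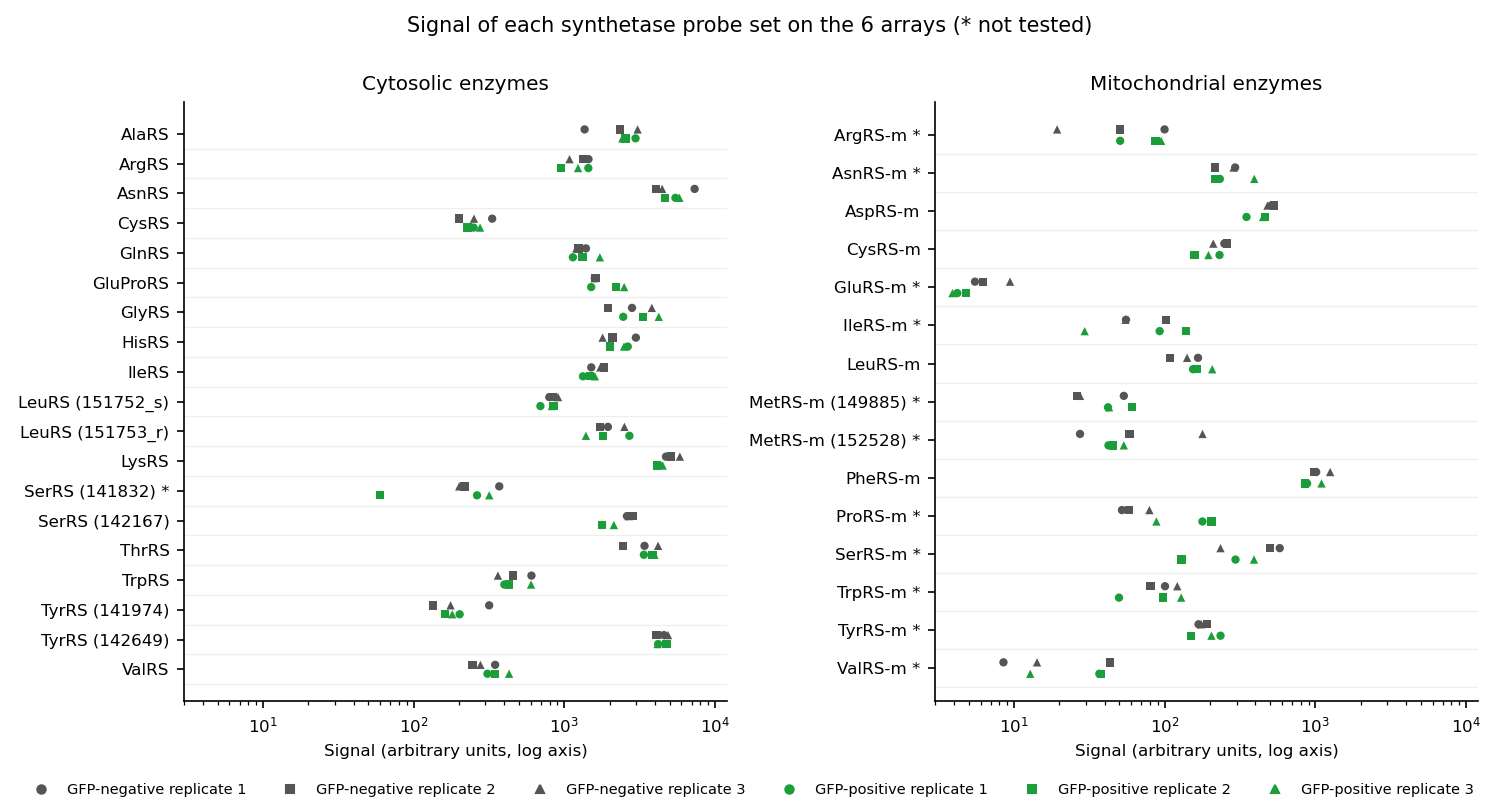
Signal of the 34 synthetase probe sets on each of the 6 arrays (log axis, arbitrary units), with GFP-negative arrays in grey and GFP-positive arrays in green, and an asterisk for probe sets too rarely Present to be tested. Grey and green points overlap in 19 of the 22 tested probe sets, while *SerRS* (142167), *LysRS* and *AspRS-m* have all green points left of the grey ones. Of the untested ones *GluRS-m* has them all to the left and *ProRS-m* all to the right. Most mitochondrial enzymes carry an asterisk.

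The 95% intervals of the tested synthetases were about as wide as those of the array. Their median limits were -0.57 and 0.58 on the log2 scale, against -0.61 and 0.58 over all tested probe sets. All 22 tested synthetase probe sets, 18 cytosolic and 4 mitochondrial, had a 95% interval inside -1 to 1 on the log2 scale, that is less than a 2-fold change either way, while 66.8% of all tested probe sets and 71.5% of those Present on all 6 arrays did. At an unadjusted p under 0.05 there was 1 synthetase among the 22, where 14% of all tested probe sets passed (5.95% higher and 8.01% lower), and 0 of the 22 differed by more than 1 on the log2 scale, where 4.84% of all did. In 3 of the 22 every GFP-positive array lay below every GFP-negative one, and in 0 every one lay above. Over all tested probe sets the arrays separated fully in 20.8%, with the GFP-positive ones below in 11.4% and above in 9.43%. The within-group SD on the log2 scale had a median of 0.26 over the cytosolic probe sets and 0.31 over all tested ones.

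**Figure D2:**
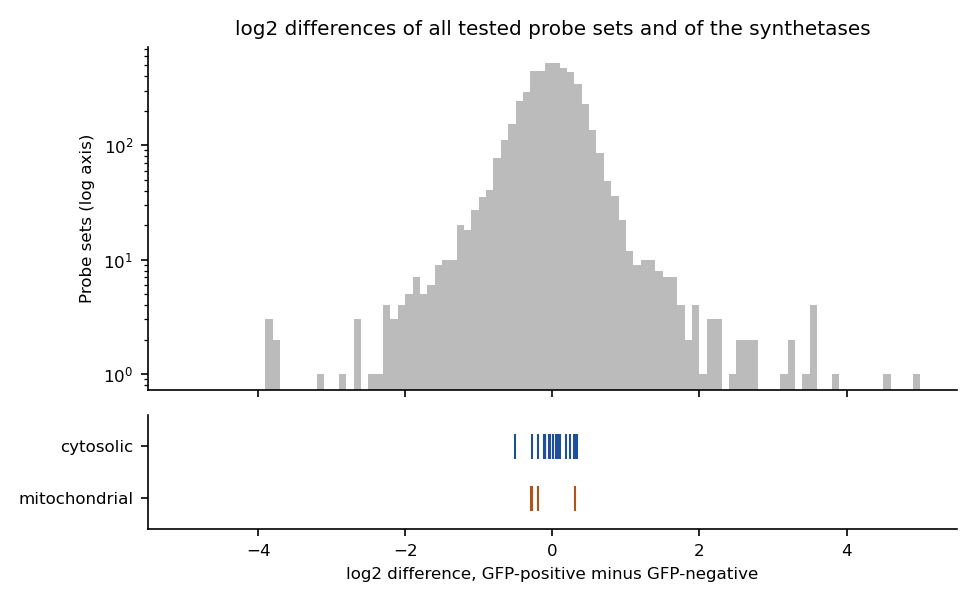
Above, the number of tested probe sets (log axis) by log2 difference between GFP-positive and GFP-negative cells in steps of 0.1, and below, 1 tick for each tested synthetase probe set. The cytosolic ticks lie between -0.51 and 0.34 and the mitochondrial ones between -0.29 and 0.31, while all tested probe sets reach from -3.90 to 4.99.

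The synthetase with the lowest p was the cytosolic seryl enzyme. *SerRS* (probe set 142167_at), which charges serine tRNAs and also loads the selenocysteine tRNA with serine, had signals of 2608, 2846 and 2684 in GFP-negative replicates 1 to 3 and 1784, 1790 and 2136 in GFP-positive replicates 1 to 3. Every GFP-positive array lay below every GFP-negative array. The means were 1904 ± 202 (SD, n = 3) and 2713 ± 122, and the log2 difference was -0.51 (SE 0.20, 95% interval -0.96 to -0.07). Its unadjusted limma p was 0.0281 and its adjusted p was 0.275, so it did not pass, and the exact permutation p was 0.1, the smallest that 3 arrays against 3 allow. The difference was -0.54 in the pair of arrays hybridized on the first day and -0.50 in the 4 arrays of the second day. A second *SerRS* probe set, 141832_at, was Absent on all 6 arrays with signals from 60.2 to 370.6, and its groups overlapped, so it gives no level to set beside the first.

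*LysRS*, the lysyl enzyme, whose mammalian gene makes both the cytosolic and the mitochondrial form, had signals of 4737, 5119 and 5856 in GFP-negative and 4269, 4149 and 4504 in GFP-positive replicates 1 to 3. These groups did not overlap either, with means of 5237 ± 569 and 4307 ± 181 (SD, n = 3). The log2 difference was -0.28 (SE 0.20, 95% interval -0.71 to 0.16, limma adjusted p = 0.599). *IleRS*, the isoleucyl enzyme, which also clears misloaded valine, was the other of the 3 lowest, at 1512, 1838 and 1738 in GFP-negative and 1332, 1480 and 1598 in GFP-positive replicates. Here the GFP-positive values overlapped the lowest GFP-negative array, and the log2 difference was -0.20 (95% interval -0.66 to 0.25, adjusted p = 0.721).

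At the other end stood *GluProRS*, *ValRS* and *AlaRS*, none of which passed. *GluProRS*, a fused enzyme that charges glutamate and proline tRNAs, had GFP-negative signals of 1597, 1616 and 1591 and GFP-positive signals of 1511, 2209 and 2501. The GFP-negative arrays were nearly equal (1601 ± 12.6, SD, n = 3), while GFP-positive replicate 1 lay below them and replicates 2 and 3 above (2074 ± 509). The log2 difference was 0.34 (SE 0.24, 95% interval -0.19 to 0.86, adjusted p = 0.591).

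*ValRS*, the valyl enzyme, had signals of 348.0, 245.9 and 277.9 in GFP-negative and 309.5, 348.7 and 430.8 in GFP-positive replicates 1 to 3, with a Marginal call in GFP-positive replicate 2. The groups overlapped, and the log2 difference was 0.31 (95% interval -0.24 to 0.85, adjusted p = 0.641). *AlaRS*, the alanyl enzyme, which also clears serine wrongly joined to alanine tRNA, ranged from 1366 in GFP-negative replicate 1 to 2352 and 3070 in replicates 2 and 3. Its GFP-positive values of 2975, 2546 and 2431 lay within that range (log2 difference 0.30, 95% interval -0.35 to 0.95, adjusted p = 0.710).

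*AsnRS* and *TyrRS* had, with *LysRS*, the brightest cytosolic probe sets, which does not rank their RNA since probe sets differ in how well they hybridize, and neither passed the test. The asparaginyl enzyme *AsnRS* had 7337, 4077 and 4468 units in GFP-negative and 5474, 4661 and 5817 in GFP-positive replicates, with the highest and the lowest value both among GFP-negative arrays (log2 difference 0.05, 95% interval -0.52 to 0.62, adjusted p = 0.953). For *TyrRS*, the tyrosyl enzyme, probe set 142649_at had signals of 4591, 4097 and 4889 in GFP-negative and 4202, 4776 and 4167 in GFP-positive replicates, a ratio of 1.19 between the highest and the lowest array, the smallest among the tested synthetase probe sets. The log2 difference was -0.05 (SE 0.20, 95% interval -0.48 to 0.39, adjusted p = 0.946).

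For *TyrRS* and *LeuRS*, the genes with 2 tested probe sets, both gave small differences of the same sign, with intervals that include 0. The second *TyrRS* probe set, 141974_at, was Present on all GFP-negative arrays but on only 1 GFP-positive array, with signals of 317.7, 134.9 and 176.1 against 202.3, 161.1 and 180.7. The ratio of highest to lowest array was 2.36, the largest among the tested ones, the GFP-positive values lay inside the GFP-negative range, and the log2 difference was -0.12 (95% interval -0.84 to 0.61, adjusted p = 0.914). The leucyl enzyme *LeuRS* had a log2 difference of -0.10 in both of its probe sets. Probe set 151752_s_at read 796.3, 835.7 and 909.9 in GFP-negative and 695.3, 847.7 and 827.9 in GFP-positive replicates (95% interval -0.56 to 0.35, adjusted p = 0.874). Probe set 151753_r_at read 1951, 1726 and 2509 against 2707, 1814 and 1394, with the highest and the lowest array both GFP-positive (95% interval -0.72 to 0.52, adjusted p = 0.913). So the 2 probe sets gave the same mean difference only. The second scattered more, with a ratio of 1.94 between highest and lowest array against 1.31. GFP-positive replicate 1 was the lowest array of the first probe set and the highest of the second.

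The other 7 cytosolic probe sets had differences between -0.10 and 0.24, and the groups overlapped in each. They were *GlyRS* (0.24), an enzyme with a cytosolic and a mitochondrial form in the fly, *ThrRS* (0.18), *GlnRS* (0.10), *HisRS* (0.08), *TrpRS* (0.01), *CysRS* (-0.03) and *ArgRS* (-0.10), each named for its amino acid. Grouped by catalytic class, the 10 tested class I probe sets had a median difference of -0.07 (range -0.20 to 0.31) and the 7 of class II a median of 0.08 (range -0.51 to 0.30), with *GluProRS* in neither since it joins an enzyme of each class. The multi-synthetase complex is an assembly of several cytosolic synthetases with scaffold proteins, described in mammals. The 7 tested probe sets of its enzymes had a median of -0.10 (range -0.28 to 0.34), and the 11 of enzymes outside it had a median of 0.05 (range -0.51 to 0.31).

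**Figure D3:**
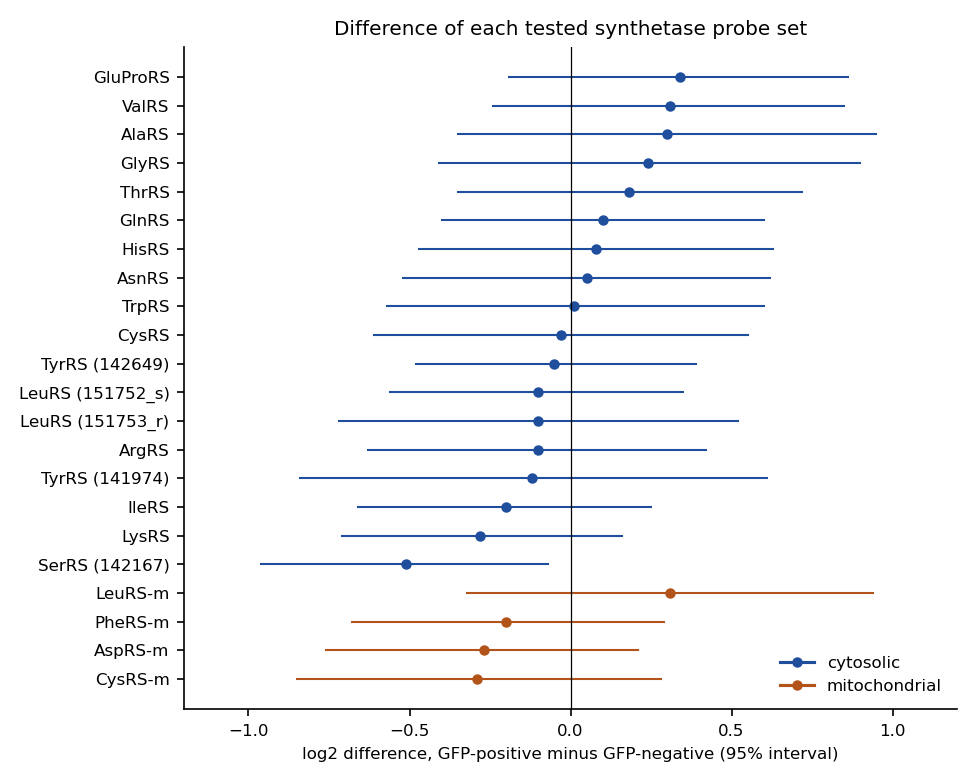
log2 difference (point) and 95% interval (line) from limma for the 22 tested synthetase probe sets, cytosolic in blue and mitochondrial in orange, ordered by difference within each set. Every interval lies between -1 and 1, and that of *SerRS* (142167), from -0.96 to -0.07, is the only one that leaves out 0.

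Of the 15 probe sets of mitochondrial synthetases, 3 were Present on all 6 arrays (20%, near the 25.5% of all probe sets on the array), 1 on 4, 2 on 2, 2 on 1 and 7 on none (46.7%, against 59.1% of all probe sets on the array). The number Present per array was 6, 6 and 3 in GFP-negative and 4, 3 and 6 in GFP-positive replicates 1 to 3 (5.00 ± 1.73 against 4.33 ± 1.53, SD, n = 3; two-sided exact permutation p = 1.0, where the smallest possible is 0.1). Only 4 could be tested, and 0 rose and 0 fell by limma, against 1.25% and 1.74% of all tested probe sets. Their median difference was -0.23, with 3 negative and 1 positive, while 51.3% of all tested probe sets were negative.

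*PheRS-m*, which charges phenylalanine tRNA as a single chain, unlike the cytosolic enzyme of several chains, had signals of 1012, 982.8 and 1252 in GFP-negative and 880.5, 850.2 and 1098 in GFP-positive replicates. The groups overlapped through GFP-positive replicate 3, and the log2 difference was -0.20 (95% interval -0.68 to 0.29, adjusted p = 0.746). *AspRS-m*, the aspartyl enzyme, had 509.8, 530.8 and 481.0 units against 348.7, 463.5 and 449.5. Its groups did not overlap, GFP-positive arrays being lower, but the log2 difference of -0.27 (SE 0.22, 95% interval -0.76 to 0.21) did not pass, with an adjusted p of 0.646 and an exact permutation p of 0.1.

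*CysRS-m*, the cysteinyl enzyme, was Present on 2 arrays of each group. Its signals were 248.5, 258.3 and 209.9 in GFP-negative and 230.9, 157.9 and 195.0 in GFP-positive replicates, and the groups overlapped (log2 difference -0.29, 95% interval -0.85 to 0.28, adjusted p = 0.680). *LeuRS-m*, the leucyl enzyme, was the only tested mitochondrial member with a positive sign, at 166.2, 108.1 and 140.7 against 154.1, 162.7 and 206.6. GFP-positive replicates 1 and 2 lay within the GFP-negative range, and the log2 difference was 0.31 (95% interval -0.32 to 0.94, adjusted p = 0.683).

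For leucine and cysteine the enzymes of both compartments were tested. The log2 differences were -0.10 in both *LeuRS* probe sets and 0.31 for *LeuRS-m*, and -0.03 for *CysRS* and -0.29 for *CysRS-m*. For phenylalanine they were 0.11 for *alpha-PheRS* and 0.03 for *beta-PheRS*, the cytosolic subunits, and -0.20 for *PheRS-m*. All 8 of these intervals include 0, and differences between compartments were not tested.

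The remaining 11 mitochondrial probe sets stood for 10 genes. *TrpRS-m* (Absent or Marginal), *GluRS-m*, *ProRS-m*, *TyrRS-m*, *ValRS-m* and both probe sets of *MetRS-m* were Present on no array. Together with the *SerRS* probe set above, these 8 had signals from 3.9 to 370.6 units. *ArgRS-m* and *SerRS-m* were Present on 1 GFP-negative array each, and *AsnRS-m* on replicate 1 of the GFP-negative and replicate 3 of the GFP-positive group. *IleRS-m* was Present on 2 arrays with 101.5 and 29.4 units and Marginal on 3, 1 of them at 139.0 units, so its calls did not follow its signal. *SerRS-m*, whose probe set was, with those of *PheRS-m* and *AspRS-m*, among the 3 brightest mitochondrial ones, had 579.7, 498.2 and 234.4 units in GFP-negative and 294.8, 129.3 and 391.1 in GFP-positive replicates, with the only Present call in GFP-negative replicate 2.

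Both *MetRS-m* probe sets were Absent throughout, with 26.1 to 60.7 units in 149885_at and 27.4 to 178.1 in 152528_at. *ProRS-m*, the prolyl enzyme, had 52.0, 58.1 and 79.1 units in GFP-negative and 177.9, 204.8 and 88.0 in GFP-positive replicates. These groups did not overlap, but since all 6 calls were Absent the values are not well above background and give no fold. In a fit of all 13966 probe sets with no filter on calls its limma adjusted p was 0.421, and no synthetase passed there. *GluRS-m*, Absent throughout at 5.5 to 9.4 units in GFP-negative and 3.9 to 4.8 in GFP-positive replicates, is next to *TyrRS* on chromosome arm 3L in the RefSeq gene order, and the pair was the only neighbours among the members. *TyrRS* was Present on all 6 arrays in the brighter of its probe sets, and *GluRS-m* on none.

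The arrays were hybridized on 2 days, replicate 1 of both groups on the first and the other 4 arrays on the second. Many cytosolic members had opposite signs on the 2 days, 12 of 18 (66.7%), where 37.3% of all tested probe sets did. Of the 18, 10 (55.6%) were negative on the first day and positive on the second, against 18.2% of all tested probe sets. These probe sets share the same 6 arrays. *TrpRS*, the tryptophanyl enzyme, had a log2 difference of -0.58 on the first day and 0.31 on the second, and *AsnRS* of -0.42 and 0.29. *AlaRS* went the other way, at 1.11 and -0.11. A term for the change of the difference between days, added after these values were seen, passed for 0 of the 22 synthetase probe sets and for 0 of all 4943, or 0% (limma adjusted p under 0.05, with 2 residual degrees of freedom), and at an unadjusted p under 0.05 for 1 and 198 (4.01%). That 1 was *AlaRS*, with a limma adjusted p of 0.974. The first day has 1 array a group, so its differences carry no error of their own.

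**Figure D4:**
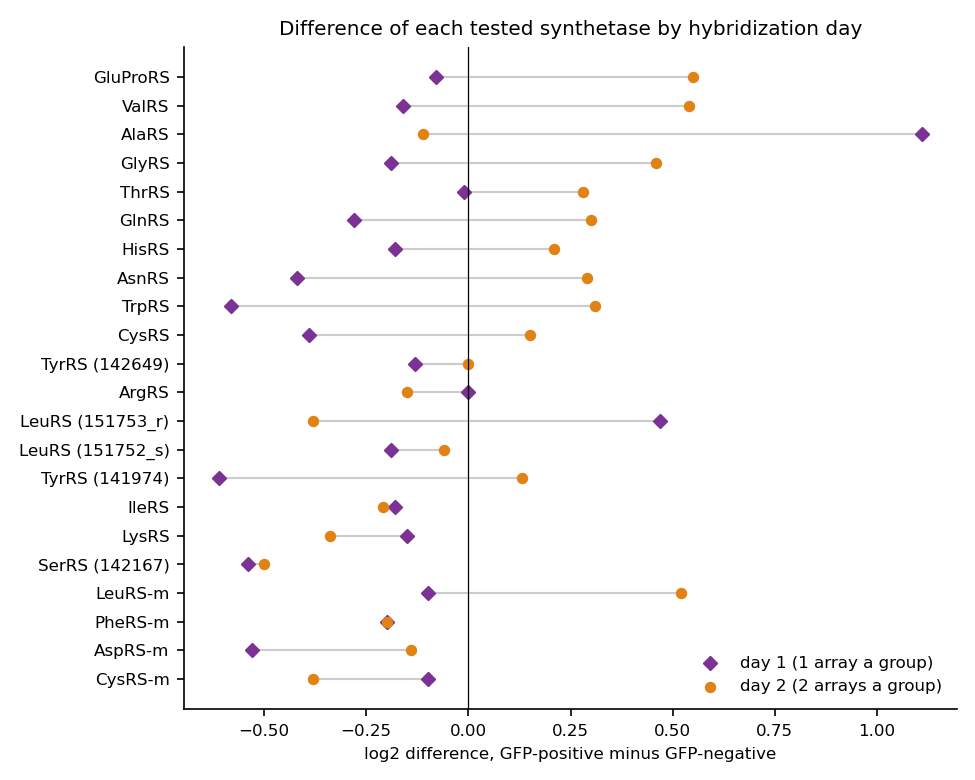
log2 difference of each tested synthetase probe set in the 2 arrays of the first hybridization day (purple diamonds) and the 4 arrays of the second (orange circles), joined by a grey line. *SerRS* (142167), *IleRS* and *PheRS-m* have nearly the same value on both days, and *AlaRS*, *TrpRS* and *LeuRS* (151753_r) lie on opposite sides of 0.

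Leaving out GFP-negative replicate 1 moved the median of the cytosolic members most. Relative to each probe set's mean over the 6 arrays, the cytosolic members had a median deviation of 0.06, -0.13 and 0.06 in GFP-negative and -0.07, -0.10 and 0.07 in GFP-positive replicates 1 to 3. GFP-negative replicate 1 held the highest of the 6 values for 6 of the 18 tested cytosolic probe sets, and GFP-negative replicate 2 the lowest for 7. Without GFP-negative replicate 1 the median difference of the cytosolic members was 0.16, against -0.09 to 0.07 without each of the other 5 arrays in turn, and 0 of them passed in any of these fits.

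Genes that work beside the synthetases were read from a list of 33, of which 26 were on the array and 19 were tested. Of these 1 rose, 0 fell and 18 did not pass (limma adjusted p under 0.05, where 2.99% of all tested probe sets passed), with a median difference of 0.07. At an unadjusted limma p under 0.05 there were 2 of the 19, where 14% of all tested probe sets passed. In 5 of the 19 the arrays of the groups did not overlap, where those of 20.8% of all tested probe sets did not. Among subunits and partners 0 of 5 tested passed. *AIMP1*, a scaffold of the multi-synthetase complex in mammals, had 1033, 1137 and 1202 units in GFP-negative and 1784, 1204 and 1676 in GFP-positive replicates. The GFP-positive arrays were all above the GFP-negative ones, replicate 2 only just, and the log2 difference was 0.44 (SE 0.23, 95% interval -0.06 to 0.95, adjusted p = 0.417). The other scaffold genes, *AIMP2* and *AIMP3*, had differences of -0.09 and 0.20.

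None of the 3 tested delivery factors passed, which were the mitochondrial elongation factors *mEFTu1*, *mEFTu2* and *mEFTs* with differences from -0.26 to -0.04. *mEFTu1*, which brings charged tRNA to the mitochondrial ribosome, had 1993, 1579 and 1834 units against 1311, 1427 and 1804, with overlapping groups (95% interval -0.74 to 0.23, adjusted p = 0.665). *GatA*, a subunit of the enzyme that makes mitochondrial glutaminyl tRNA, had 0.22, and the 3 tested genes of tRNA processing (*La*, *Tgt* and *RtcB*) lay between -0.18 and 0.26, with none past the threshold.

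The 1 gene that rose belonged to serine synthesis. *aay*, which encodes phosphoserine phosphatase, the enzyme of the last step of serine synthesis, had 142.6, 164.6 and 176.1 units in GFP-negative and 664.2, 637.9 and 498.3 in GFP-positive replicates. Every GFP-positive array was above every GFP-negative one, with means of 600.1 ± 89.2 and 161.1 ± 17.0 (SD, n = 3). The log2 difference was 1.79 (SE 0.23, 95% interval 1.27 to 2.31, limma adjusted p = 0.00206). It was Present on all 3 GFP-positive arrays and on 1 GFP-negative array, so it entered the test through the GFP-positive arrays. *Shmt*, which converts serine to glycine, was Present on only 1 array, in the GFP-negative group, and was not tested. Its signals of 735.6, 712.6 and 271.8 against 97.4, 212.7 and 521.4 overlapped between the groups.

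Of the amino acid starvation genes listed with *aay*, the other 3 that were tested did not pass. *crc*, the fly ATF4 factor that acts downstream of Gcn2, had 14747, 7437 and 6097 units in GFP-negative and 13033, 8900 and 13011 in GFP-positive replicates, with the highest array among the GFP-negative ones. Its log2 difference was 0.39 (95% interval -0.33 to 1.11, adjusted p = 0.653). The kinase gene *Gcn2* had a difference of 0.09 (95% interval -0.35 to 0.54) and *Nmdmc*, a mitochondrial folate enzyme, of 0.23, and neither passed.

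Among amino acid transporters 0 of 3 tested passed. *mnd*, which encodes a transporter needed for imaginal disc growth, had 379.0, 353.4 and 226.0 units in GFP-negative and 183.5, 221.9 and 119.6 in GFP-positive replicates. All GFP-positive arrays were below all GFP-negative ones, and the log2 difference was -0.82 (SE 0.31, 95% interval -1.50 to -0.14, unadjusted p = 0.0233), but the limma adjusted p was 0.251. *gb*, a subunit of a glutamate transporter known from glia, had 281.3, 227.8 and 304.6 against 181.4, 221.7 and 149.0, again without overlap (log2 difference -0.53, 95% interval -1.11 to 0.05, adjusted p = 0.411). *JhI-21* had a difference of 0.07, and *slif*, *path*, *sbm* and *Eaat2* were Present on no array.

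**Figure D5:**
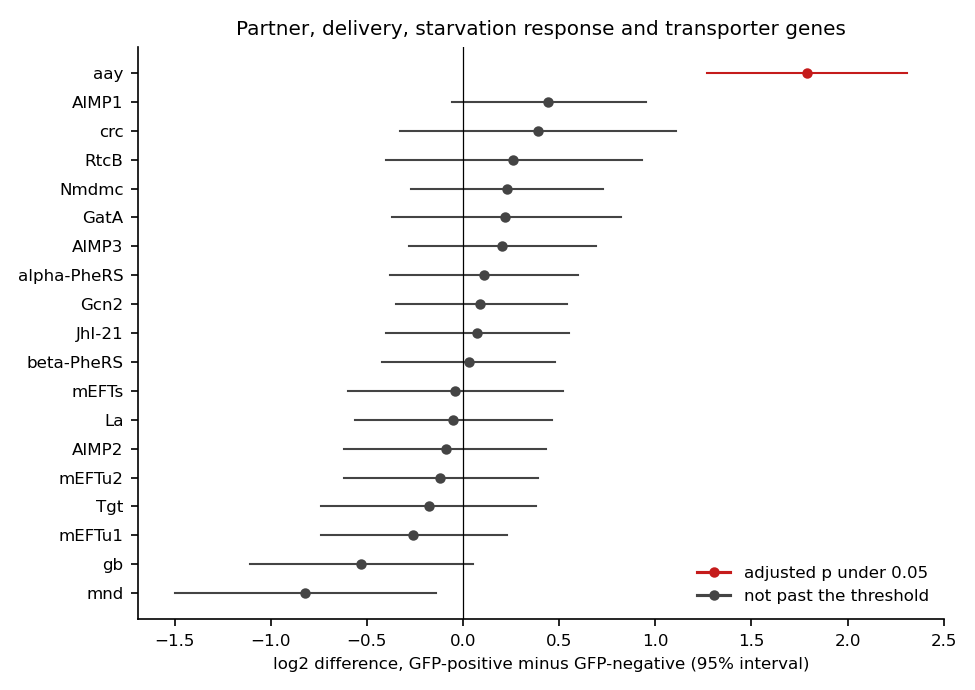
log2 difference (point) and 95% interval (line) of the 19 tested genes that act beside the synthetases, ordered by difference, with genes past the threshold in red. *aay*, at 1.79, is the only red gene, and the other 18 lie between -0.82 and 0.44.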

How the data were processed

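Cells of 2 groups, 3 arrays each, were measured on the Affymetrix DrosGenome1 array. The authors deposited an intensity, the Signal, and a detection p-value with its call for each of 14010 probe sets; per the file headers, Signal was scaled to a trimmed mean target of 500, with scaling factors from 4.40 to 6.52, and calls used Alpha1 0.04, Alpha2 0.06 and Tau 0.015. The series table held the same intensities. How RNA was amplified is not given in the sources used here; precision is limited by the number of arrays, and between 4321 and 5039 probe sets were Present per array.

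The 44 control probe sets were left out. log2(signal + 16) was fitted with group as the only term (limma 3.58.1 under R 4.3.3, two-sided, eBayes with intensity trend), over the 4943 probe sets Present on at least 2 arrays of a group, with Benjamini-Hochberg adjustment and a threshold of 0.05. The fit was tested on simulated data with independent noise on each array and no effect of day, lot or pairing. The planted changes were larger than the difference of any tested synthetase, so that run does not bear on differences of their size. Exact permutation tests used scipy 1.17.1. Symbols came from the platform annotation, of which 12443 probe sets had 1 symbol, 327 several and 1196 none; all 34 synthetase probe sets matched the RefSeq gene table (Release 6). Members, gene lists and tests were chosen with earlier results of these data known.

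Values on every array were given for synthetases at an unadjusted p under 0.05, the 3 highest and 3 lowest differences and the 3 brightest of each compartment, and genes with several probe sets; of related genes, those past the threshold and the 3 highest and 3 lowest. Others named with values (*ProRS-m*, *GluRS-m*, *Gcn2*, *Shmt*, *Nmdmc* and the scaffold, delivery and processing genes) were added after their values were seen.

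Same-numbered samples of the 2 groups deviated together, with correlations over probe sets of 0.402, 0.102 and 0.122 for numbers 1, 2 and 3. All were over 0.1, so the numbers were taken to pair the samples, but for numbers 2 and 3 this is borderline: GFP-negative 2 correlated more with GFP-positive 3 (0.221), and GFP-negative 3 with GFP-positive 2 at 0.0983. The arrays of number 1 share a lot and are the only ones of the first day, so pairing cannot be told apart from day or lot there. The fit without the block remained the one reported, and its standard errors, intervals and p-values ignore any pairing. Alternatives were pseudocounts of 1 and 64, other filters and scalings, no trend, blocks for replicate, day and lot, each array left out, and each day and lot alone.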

Additional observations from a re-analysis of the deposited data

How the results depend on the processing

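In all 18 alternatives with a test, 0 synthetases were higher and 0 lower by limma, and the lowest adjusted p of any member was 0.19, for *SerRS* with day as a block. *SerRS* was 0.22 with replicate as a block, and 0.245 to 0.666 with an array left out. The sign was less firm, since 7 of 22 tested members kept it under every alternative. The median difference of the cytosolic members, -0.01, was -0.12 with median scaling, 0.14 on the second day alone, -0.18 in the first-day pair, and -0.09 to 0.16 with an array left out. That of the mitochondrial members, -0.23, was 0.04 with no filter, -0.35 with median scaling, -0.15 with lot as a block, -0.15 in the first-day pair, -0.15 and -0.10 in the lots of 3 and 2 arrays, and -0.30 to -0.14 with an array left out. Median scaling moved the median of all tested probe sets from -0.01 to -0.123. *aay* was called in 17 alternatives, with an adjusted p of 0.00385 to 0.0192 with an array left out. Only among probe sets Present on all 6 arrays were 0 related genes called, since *aay* was not among them.

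Over the whole array 148 probe sets passed. The count was 257 with replicate as a block, which changed no call of a synthetase or related gene (marker calls in that fit were not read out), 229 with day as a block, 97 with no filter, 50 among probe sets Present on all 6 arrays, 76 on the second day alone, 84 in the lot of 3 arrays, and 69 to 147 with an array left out. The causes of these shifts were not tested. The lot of 3 arrays has 1 GFP-positive array, so its test assumes that this array varies like the GFP-negative ones, and the same holds for its part in the alternatives counted above. Of the 12 untested synthetase probe sets 8 were Present on no array, which limits what their signals can show.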
